A study of Mus musculus with 8 samples.

Results

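The 10 genes described here encode enzymes of glycolysis: Hk1, Hk2, Pfkl, Pfkp, Aldoa, Tpi1, Gapdh, Pgk1, Pkm and Ldha. They were found by gene name in both deposited tables, where 11 of 20432 shared rows carry these names, because Aldoa stands for 2 separate gene models. The set was chosen by the normalised counts of Gapdh, which jump between replicates, so the spread of Gapdh is given as a description, and the question asked of the other enzymes is whether they were steady. The RNA-seq libraries came from MC38 cells, a mouse colon adenocarcinoma line, either control (wild type) or DENR KO, in which Denr, encoding a translation reinitiation factor, was targeted with lentiviral Cas9 and a guide RNA. The 4 groups were control untreated, DENR KO untreated, control with IFNγ and DENR KO with IFNγ, with 2 libraries each, and the cytokine was given at 20 ng/ml over 4 h. Nothing in the labels says that the replicates were separate cultures or clones, so p-values measure only the spread between these libraries.

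Glycolysis splits glucose into pyruvate. Hexokinases (Hk1, Hk2) phosphorylate glucose on entry, phosphofructokinases (Pfkl, Pfkp) commit the sugar to the pathway, and aldolase (Aldoa) with triose phosphate isomerase (Tpi1) yields the triose that Gapdh oxidises. Phosphoglycerate kinase (Pgk1) and pyruvate kinase (Pkm) make ATP, and lactate dehydrogenase (Ldha) turns pyruvate into lactate, a route that tumour cells use heavily even with oxygen present. Gapdh transcripts are usually abundant, which is why Gapdh is a common reference gene, and the mouse genome holds many processed pseudogenes copied from it.

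Between 17369020 and 18403790 reads fell on genes in each library, and size factors ran from 0.976 to 1.02. Values below are normalised counts, that is, reads divided by 1 size factor per library. Denr was lower in every DENR KO library, at 67.0% of the control mean with IFNγ and 67.7% without it (log2 fold change -0.58 and -0.56, limma adjusted p = 8.17e-06 and 0.00011). Of 12 colon epithelium markers, 5 were listed in both tables and only Cdh1 averaged at least 10 counts (4.91 to 20.6), so this tissue's markers were at or near 0. The summed level of those markers was 12.7 to 27.5 over all libraries. Markers of other cell types summed to 3258 to 3662 with IFNγ and 4614 to 5180 without it, most of it Col3a1, a fibrillar collagen gene (2253 to 3813), while Csf1r, a macrophage receptor gene, stayed at 0 to 4.02. In bulk RNA, fewer cells of a type and less RNA per cell cannot be told apart.

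Coding sequence of Gapdh is shared with many other places in the genome, and 2 short windows of it are shown because they mark the ends of that range. Gapdh (ENSMUSG00000057666) lies on the minus strand at chr6:125161715-125166467 (GRCm38, GENCODE M21), and its main coding transcript has 1420 bases in 7 exons, of which 999 are coding. Of the 831 windows of 30 bases that lie whole within a coding exon, 0 were unique to Gapdh, and the median window was found in 66 other annotated genes. The most widely shared window is in exon 4 at chr6:125162917-125162946 and occurs in 134 other genes, and the least shared is in exon 3 at chr6:125163397-125163426 and occurs in 10. Lower case letters are used throughout, as no base is singled out.
Gapdh, exon 4 window: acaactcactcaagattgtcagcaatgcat
Gapdh, exon 3 window: attgggcgcctggtcaccagggctgccatt

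The deposited counts of Gapdh fell into a low and a high level. With IFNγ, the control libraries held 347 and 351 normalised counts and the DENR KO libraries 4029 and 2201. Without IFNγ, the control libraries held 434 and 4248 and the DENR KO libraries 366 and 374. Thus 5 libraries lay between 347 and 434 and 3 lay between 2201 and 4248, with the untreated control group split across both levels. The high level appeared in both DENR KO libraries with IFNγ and in replicate 2 of the untreated control, so it followed neither genotype nor treatment alone. Against Actb, the cytoskeletal actin gene, Gapdh had 4.60 to 5.99 reads for every 1000 Actb reads in the 5 low libraries, and 29.4, 54.7 and 60.4 in the high ones. By raw read count, Gapdh ranked 806th of all genes in replicate 2 of the untreated control and 7804th in replicate 1 of the control with IFNγ.

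**Figure D1:**
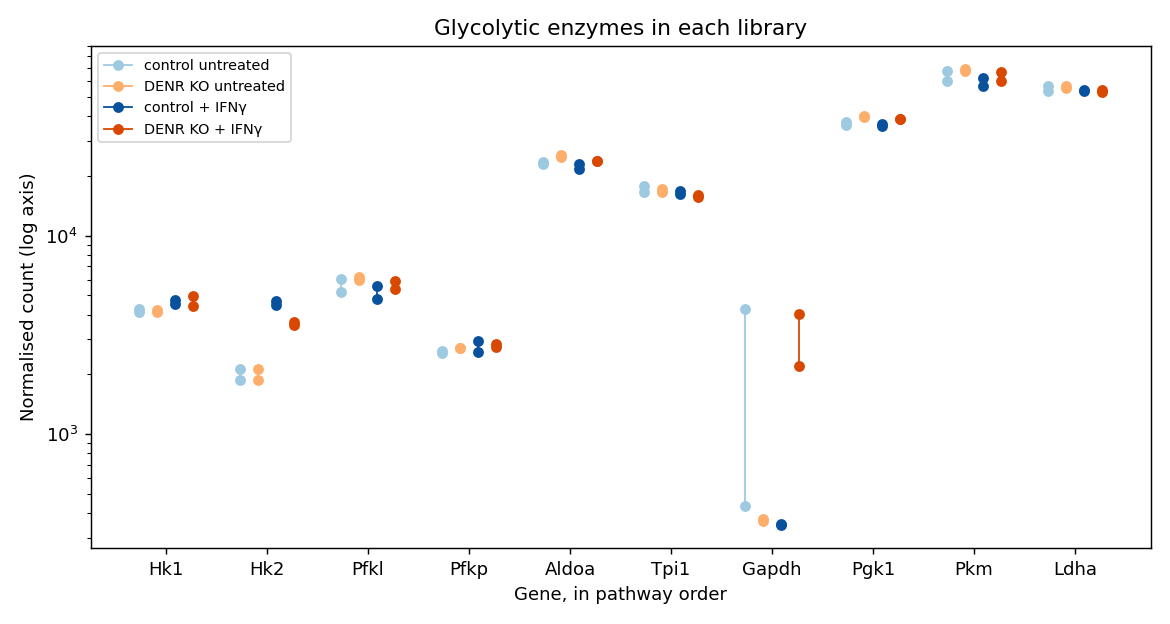
Normalised counts (log axis) of the 10 enzymes in pathway order, with 1 point for each library and a line joining the 2 replicates of a group; the second Aldoa model is not drawn. Gapdh runs from 347 to 4248, and Hk2 is higher in the groups with IFNγ, while the points of the other genes lie close together.

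The other enzymes did not share this jump. The ratio of the 2 replicates was taken on a log2 scale in each of the 4 groups, and its root mean square over groups served as the spread of a gene. For Gapdh the 4 log2 ratios of replicate 2 over replicate 1 were 0.02 and -0.87 in the control and DENR KO groups with IFNγ, and 3.29 and 0.03 in those without. Its spread was 1.70, beside a median of 0.0858 over the 4409 genes that averaged at least 1000 counts. Gapdh entered that class, at a mean of 1544, only through its high libraries (2201 to 4248). It was chosen for this jump, so no rank is read from it. An unnamed locus with lower counts had a wider spread of 2.11. The spread of the other 9 enzymes (main Aldoa model) was 0.0304 to 0.172, with a median of 0.0892, so that of Gapdh was 9.89 times the widest of them.

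Within the set, Pgk1, Aldoa, Ldha and Tpi1 were the steadiest genes. Pgk1 had a spread of 0.0304, below that of Actb at 0.0363 and wider than only 2.54% of genes of at least 1000 counts. Aldoa followed at 0.0427, Ldha at 0.0542 and Tpi1 at 0.0682. These 4 genes lay under the median of all genes that averaged at least 1000 counts. They themselves averaged 16594 to 54537 counts, and no match by abundance was made. Hk1 was near that median at 0.0892 and Pfkp at 0.103. Pkm at 0.131, Hk2 at 0.138 and Pfkl at 0.172 were wider, and Pfkl exceeded 94.9% of genes of at least 1000 counts. The second Aldoa model (ENSMUSG00000114515), adjacent at chr7:126800790-126809108, held only 50.3 to 117 counts and had a spread of 0.367. Its expected counting SD for a single log2 ratio was 0.204 to 0.270, against 0.00774 to 0.00844 for Pkm and 0.0378 to 0.110 for Gapdh. These SDs cover counting error only, not the spread between separately made libraries.

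**Figure D2:**
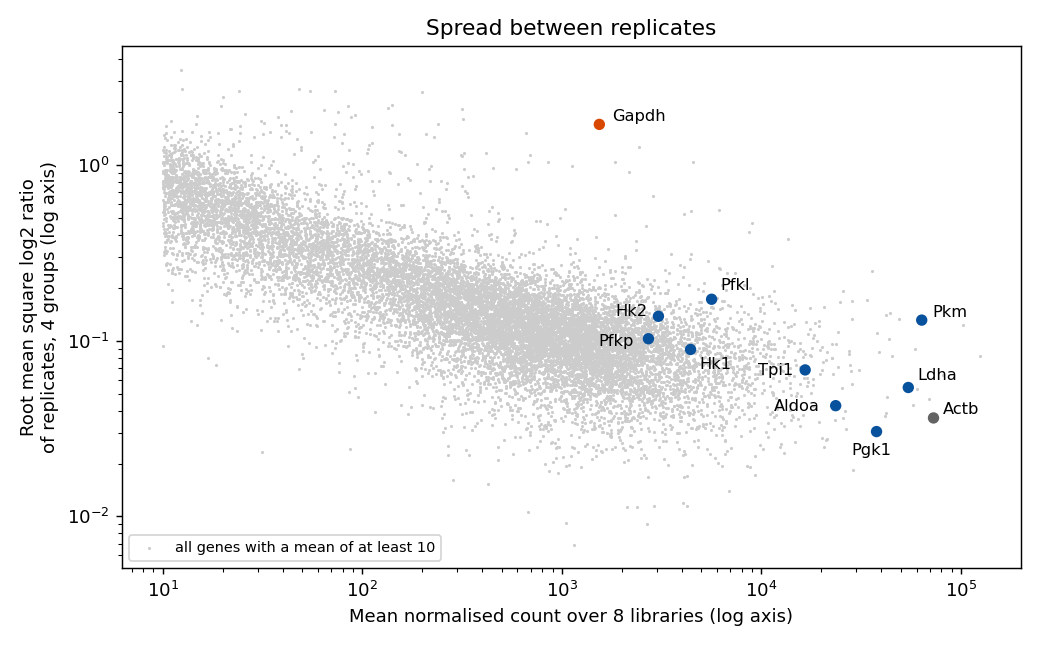
Root mean square log2 ratio of the 2 replicates over 4 groups against mean normalised count over 8 libraries, both on log axes; grey points are all 13998 genes with a mean of at least 10, blue points 9 of the enzymes, the orange point Gapdh and the dark grey point Actb. Gapdh lies at 1.70, and the other enzymes lie between 0.0304 and 0.172.

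The small replicate differences of the other 9 enzymes mostly had the same sign. Replicate 2 was lower than replicate 1 for 9 of 9 in the control with IFNγ, for 8 of 9 in DENR KO with IFNγ, for 8 of 9 in the untreated control and for 5 of 9 in untreated DENR KO. Their median log2 ratios were -0.07, -0.04, -0.09 and -0.00496 in that order. Replicate ratios of abundant genes also differed by GC content. Abundant genes were cut into 4 equal bins by GC content. In the bin richest in GC (55.0% to 73.7% of the main transcript), the median log2 ratios were -0.08, -0.08, -0.07 and 0.03 in the same groups. In the bin poorest in GC they were 0.07, 0.07, 0.06 and -0.00430. Pkm (57.7%), Pfkl (57.1%), Aldoa (56.9%), Gapdh (56.6%) and Hk1 (55.2%) belong to the richest bin. The part of GC content in the ratios of the enzymes was not tested. The ratio furthest from 0 was -0.17 for Pkm, -0.22 for Pfkl, -0.07 for Aldoa, 3.29 for Gapdh and -0.16 for Hk1. Pfkp (48.9%) and Pgk1 (49.7%) lie in the second poorest bin, with median log2 ratios of 0.03, 0.02, 0.02 and 0.00233. Their own ratios were below 0 in all 4 groups, at -0.20, -0.04, -0.04 and -0.00496 for Pfkp and -0.03, -0.01, -0.05 and -0.02 for Pgk1. Hk2, Tpi1 and Ldha lie in the bin next to the richest.

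Commonly used reference genes are set beside Gapdh as a description only, because Gapdh was chosen for its jump. The 21 such genes on a list that left out the enzymes had spreads of 0.0363 to 0.180, with a median of 0.0816. Actb, a structural gene, and Tubb5, a tubulin gene, were lowest at 0.0363 and 0.0373.

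By the cosine between the 4 replicate ratios, the genes most like Gapdh were sought among 42 genes that averaged at least 100 counts and had at least 0.5 times its spread. A cosine with Gapdh rests mostly on the untreated control, where its log2 ratio was 3.29 (0.02, -0.87 and 0.03 in the other groups). The nearest were an unnamed locus on an alternate scaffold (cosine 0.90, spread 1.14), another such locus (0.90, spread 2.11) and Kif11, encoding a mitotic kinesin (0.88, spread 1.17). Hspa4l, a heat shock protein gene, and the predicted gene Gm18194 followed at 0.77 and 0.74. Kif11 held 142 and 590 counts in the untreated control, where Gapdh also differed, but 365 and 295 in DENR KO with IFNγ against 339 and 172 in its control. None of the other glycolytic enzymes was wide enough in spread to be among the 42.

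Copies of Gapdh were then read in the same libraries. Of the stretches of 50 bases in the Gapdh transcript, 82.5% occur in at least 1 of 222 other annotated genes, 213 of them pseudogenes, and 120 of these genes have a row in a deposited table. The 120 genes together held 1277 to 1607 normalised counts in the 8 libraries. The 25 closest copies in the tables, which share at least 500 such stretches, together held 911 and 905 in the control with IFNγ, 1071 and 933 in DENR KO with IFNγ, 758 and 986 in the untreated control and 977 and 933 in untreated DENR KO. The sum was 1071, 933 and 986 in the 3 libraries with high Gapdh and 758 to 977 in the other 5. In the 5 low libraries the copies together held more counts than Gapdh itself.

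The most abundant close copy, the processed pseudogene Gm7336 (chr7:51746647-51747878), contains 1131 of the shared stretches and an identical run of 1090 bases. It held 378 and 375 counts in the control with IFNγ, 476 and 415 in DENR KO with IFNγ, 224 and 350 in the untreated control and 338 and 378 in untreated DENR KO. Its level was therefore close to that of Gapdh in 4 of the low libraries. Its own replicate ratios had a spread of 0.344 and a cosine of 0.97 with those of Gapdh. That cosine rests mostly on the untreated control, where the log2 ratio of Gapdh was 3.29. Gm5559 (130 to 189 counts) and Gm12070 (126 to 167) were next, with longest identical runs of 617 and 641 bases. Their spreads were 0.193 and 0.240, and their cosines with Gapdh 0.12 and 0.92. Where reads of Gapdh and its copies were assigned depends on how multiply aligned reads were counted, which is not given in the sources used here, so the counts of all these genes are uncertain and the part of the copies in the jump was not tested. At its 3′ end Gapdh also overlaps Iffo1, a gene on the opposite strand, by 68 bases.

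**Figure D3:**
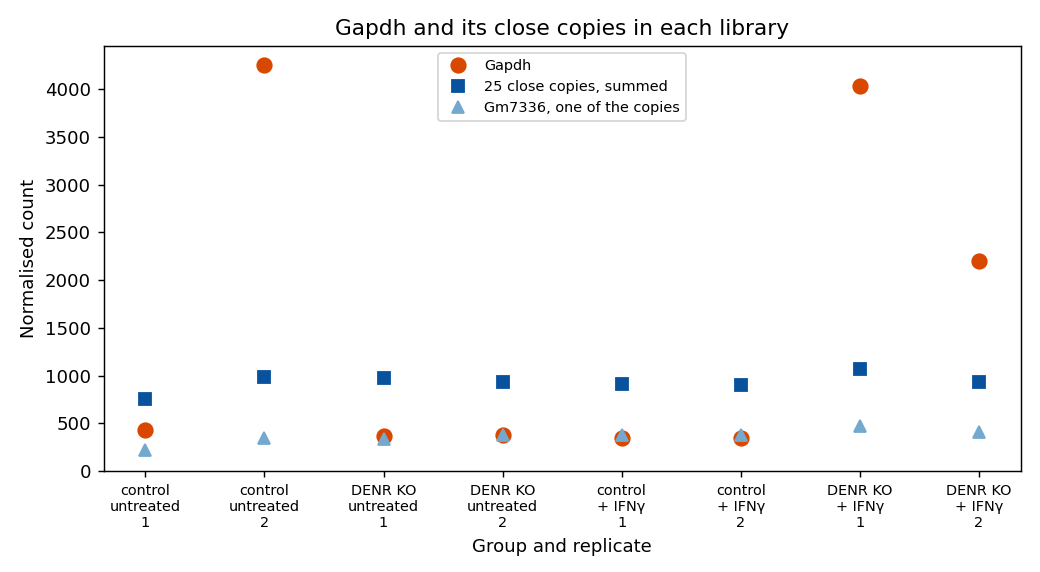
Normalised counts of Gapdh, of its 25 closest copies summed and of Gm7336, one of these copies, in each of the 8 libraries (linear axis from 0). Gapdh is at 4248, 4029 and 2201 in 3 libraries and at 347 to 434 in the others, while the summed copies lie between 758 and 1071 throughout.

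Other enzymes also share sequence with copies. Pgk1, the steadiest enzyme, shares 68.0% of its 50-base stretches with 5 other genes, and its processed pseudogene Pgk1-rs7 has an identical run of 1255 bases. Its copies held 137 to 301 counts in all, against 35668 to 39989 for Pgk1. Pkm shares 34.4% with 8 genes, Ldha 17.1% with 14, Aldoa 13.5% with 6 and Tpi1 7.51% with 2. Pfkp shares 17.1% with Pitrm1, a peptidase gene that overlaps it on the opposite strand by 748 bases, and Pfkl 0.0543% with 27 genes. Hk1 and Hk2 share none. AC160637.1 lies within Pkm on the same strand and averaged 1898 counts, so reads of the pair may be split between them.

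Per kilobase, Gapdh stood far below its neighbours in the pathway. Levels were computed as RPKM, with the length of the deposited gene model and the total of reads on genes. Pgk1 (890 to 987), Ldha (898 to 952) and Pkm (637 to 765) were the highest. The ranges of Pgk1 and Ldha overlapped, and that of Pkm lay below both. Aldoa (418 to 485) and Tpi1 (321 to 360) came next, without overlap. Pfkl stood at 40.2 to 51.1, Hk1 at 26.7 to 32.8, Hk2 at 17.4 to 44.2 and Pfkp at 10.7 to 12.4. Gapdh was at 4.72 to 5.82 in the 5 low libraries and at 30.2 to 57.4 in the 3 high ones, so even its highest library was below the lowest library of Tpi1, which acts just before it. Gene models hold more bases than 1 transcript, and with main transcript lengths the order at the top was Ldha, Pkm and Pgk1, with medians of 1724, 1483 and 1166. On that scale Gapdh, at 13.7 to 167, was still below Tpi1 (551 to 616) in every library. Gapdh shares 82.5% of its 50-base stretches with other genes and Tpi1 7.51%, and the handling of multiply aligned reads is not given. These values are levels of counted reads, and whether the transcripts differ as much was not tested.

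DENR KO was then compared with control within each table. With IFNγ, 1 of the 11 rows passed the limma test at an adjusted p under 0.05, against a background of 4.06% of 13928 genes. That gene was Hk2, the inducible hexokinase, which was lower in DENR KO. Of all genes tested, 2.25% passed and were lower in DENR KO, and 4.06% passed in either direction. With IFNγ, 3 rows (Hk2, Gapdh and Pgk1) had an unadjusted p under 0.05. Without IFNγ, 0 of 11 passed, against a background of 0.579% of 13998 genes, and 2 (Aldoa and Pgk1) had an unadjusted p under 0.05. By edgeR and DESeq2 on the recovered reads, 0 passed there as well. The share of all genes with an unadjusted p under 0.05 is not given, so such counts, here and below, are not read as results.

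Hk2 (ENSMUSG00000000628, chr6:82725025-82774454, minus strand) held 4699 and 4473 counts in the control with IFNγ and 3683 and 3542 in DENR KO with IFNγ. Without IFNγ it held 2131 and 1883 in the control and 1873 and 2135 in DENR KO. The genotypes were therefore apart with IFNγ and overlapped without it. With IFNγ the DENR KO mean was 78.8% of control (log2 fold change -0.34, SE 0.0578, n = 2 a group, limma adjusted p = 0.000488). Hk2 passed in every alternative setting that kept all libraries. With single libraries left out in turn, its log2 fold change ran from -0.38 to -0.31. Without IFNγ the log2 fold change was -0.00242, with a 95% interval of -0.16 to 0.15. The difference between these effects was -0.34 (95% interval -0.55 to -0.14) and did not pass over all genes (limma adjusted p = 0.247, background 0.45%), so a difference in effect between treatments was not established. With single libraries left out in turn, the difference between the effects stayed between -0.44 and -0.25.

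For Gapdh, DENR KO against control gave a log2 fold change of 3.09 with IFNγ (SE 0.416, limma adjusted p = 0.180) and -1.87 without it (SE 1.57, adjusted p = 0.816). The direction therefore differed between the tables, and neither passed. With IFNγ the call depended on the method: Gapdh passed in edgeR, in DESeq2 and in limma without robust moderation. The log2 fold change was 2.65 without replicate 1 of DENR KO and 3.52 without replicate 2. Calls of such fits are not read, as the lone library has no measured spread. Without IFNγ the difference rested on replicate 2 of the untreated control. The log2 fold change was -0.23 without that library and -3.52 without replicate 1 of the untreated control. The difference between the effects was 4.96 and did not pass (limma adjusted p = 0.800), whereas edgeR gave 5.82 (adjusted p = 0.00965).

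**Figure D4:**
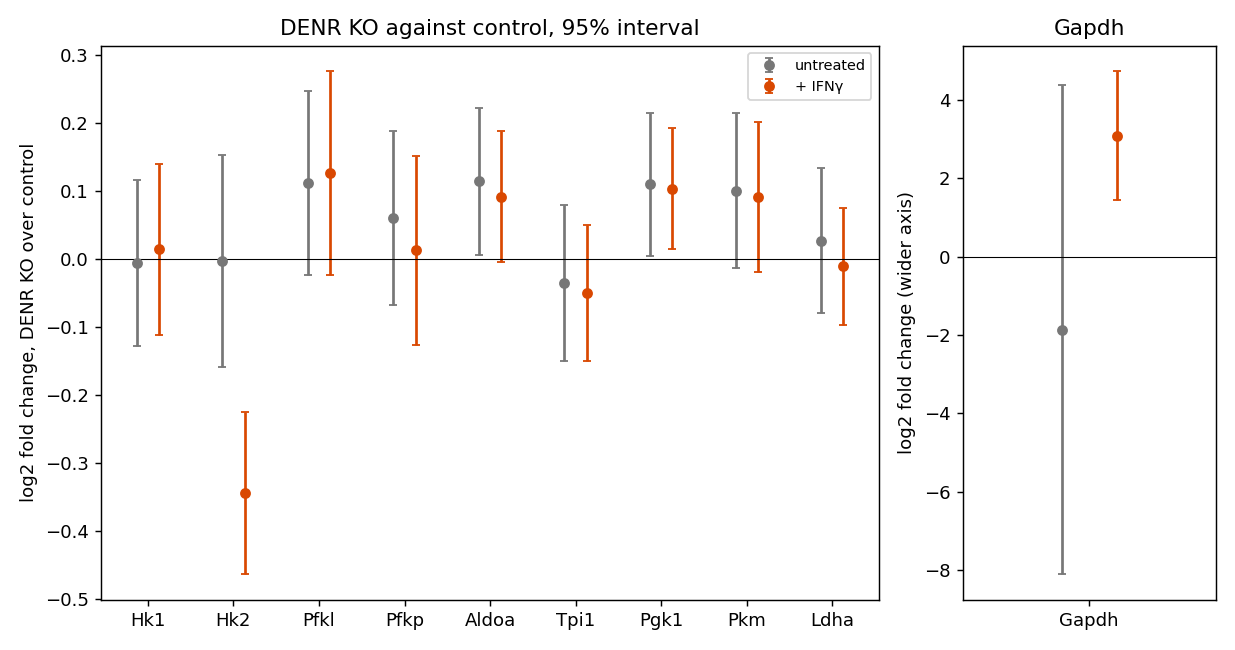
Log2 fold change for each enzyme, DENR KO relative to control, untreated (grey) and with IFNγ (orange), with the 95% interval of the limma fit; Gapdh has a panel of its own with a wider axis. Hk2 with IFNγ is at -0.34, and the untreated interval of Gapdh runs from -8.12 to 4.37.

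Pgk1, Aldoa, Pkm and Pfkl were slightly higher in DENR KO in both tables without passing in the main fit. Pgk1 held 36319 and 35668 counts in the control and 38849 and 38512 in DENR KO with IFNγ, and 37452 and 36175 against 39989 and 39474 without it. Aldoa held 22815 and 21733 against 23768 and 23693 with IFNγ, and 23480 and 22972 against 25473 and 24829 without it. For both genes the groups did not overlap in either table, but 42% of all genes tested with IFNγ and 39.9% of those without it showed such a separation. The log2 fold changes were 0.10 and 0.11 for Pgk1 and 0.09 and 0.11 for Aldoa, with and without IFNγ, at limma adjusted p-values of 0.262 and 0.524, and 0.407 and 0.518. Actb showed a similar value of 0.13 in both tables (adjusted p = 0.0729 and 0.350).

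Pkm held 61994 and 56836 counts in the control and 66561 and 60118 in DENR KO with IFNγ, and 67521 and 59919 against 67272 and 69184 without it. Pfkl held 5576 and 4790 against 5935 and 5365 with IFNγ, and 6066 and 5216 against 5987 and 6170 without it. Groups overlapped for both genes in both tables. Their log2 fold changes were 0.09 and 0.10 for Pkm and 0.13 and 0.11 for Pfkl, and the intervals included 0. Without replicate 1 of the control with IFNγ, Pfkl passed at 0.24 (adjusted p = 0.0413).

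The remaining enzymes were nearer to 0. Log2 fold changes with and without IFNγ were 0.01 and -0.00590 for Hk1, 0.01 and 0.06 for Pfkp, -0.05 and -0.03 for Tpi1 and -0.01 and 0.03 for Ldha. Their 8 intervals (95%) reached at most from -0.15, for Tpi1 with IFNγ, to 0.19, for Pfkp untreated. The second Aldoa model gave 0.46 and 0.06 at its low counts, and neither passed. Over the 9 enzymes other than Gapdh, the median log2 fold change was 0.01 with IFNγ and 0.06 without, beside medians of -0.000356 and 0.00192 over all genes tested. For the 9 rows other than Hk2 and Gapdh, the difference in effect between treatments ran from -0.05 to 0.40, and none passed.

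Levels with IFNγ were set beside those without it as a description only, since the 2 tables were normalised separately. Hk2 stood apart from the other enzymes. Its mean was 2007 ± 175 counts without and 4586 ± 160 with IFNγ in the control, and 2004 ± 186 and 3613 ± 99.7 in DENR KO (SD, n = 2), ratios of 2.29 and 1.81. On the log2 scale these were 1.19 and 0.85, and 1.27 and 0.93 with reads scaled over all 8 libraries. Log2 ratios beyond 0.5 in either direction were found for 14.2% of genes in the control and 10.9% in DENR KO. Among the 9 enzymes other than Gapdh (main Aldoa model), Hk2 alone was beyond 0.5. The second Aldoa model, at 95.8 ± 1.68 counts without and 59.0 ± 12.2 with IFNγ in the control (SD, n = 2), gave -0.70 there and -0.31 in DENR KO. Hk1 came next at 0.14 and 0.17, and the other 7 lay between -0.12 and 0.09, beside medians over all genes of -0.08 and -0.08. Gapdh gave -1.96 in the control and 3.005 in DENR KO, set by its high libraries.

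**Figure D5:**
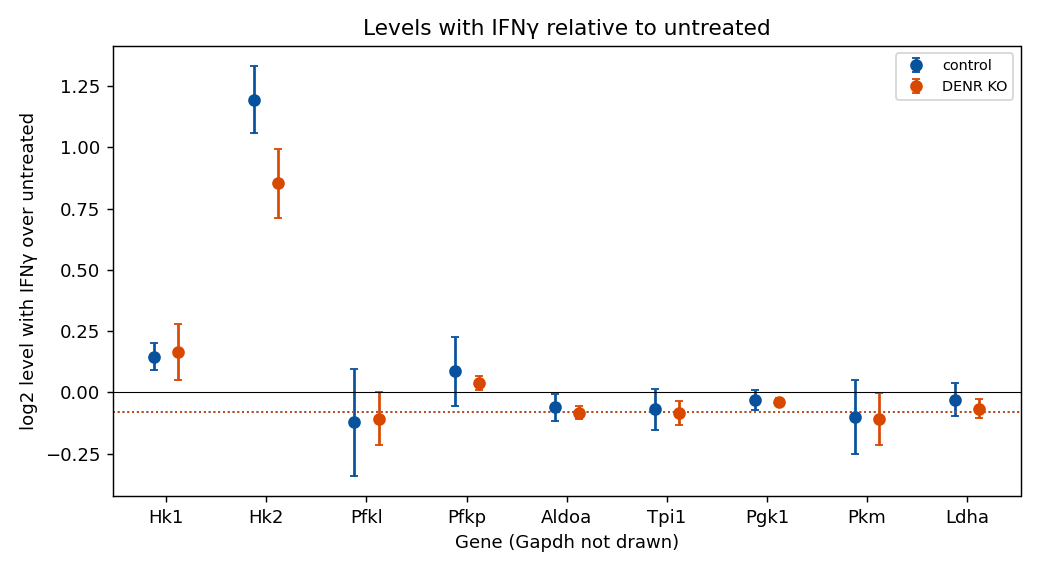
Log2 ratio of the level with IFNγ to the untreated level for 9 enzymes in control (blue) and DENR KO (orange); bars are the combined SD of the 2 groups, and dotted lines mark the medians over all genes. Gapdh and the second Aldoa model are not drawn. Hk2 lies at 1.19 and 0.85, and the other enzymes lie between -0.12 and 0.17.

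The makeup of the hexokinase step differed along with it. Per kilobase of gene model, Hk2 made up 40.6% ± 2.74 of Hk1 and Hk2 together in the untreated control and 40.7% ± 1.93 in untreated DENR KO. With IFNγ its share was 58.6% ± 0.183 in the control and 52.4% ± 1.25 in DENR KO (SD, n = 2). All 4 libraries with IFNγ were above all 4 without it. With main transcript lengths the shares were lower, from 25.1% in both untreated groups to 40.9% and 35.0%, in the same order. At the phosphofructokinase step, Pfkl made up 79.0% to 81.8% of Pfkl and Pfkp in the group means per kilobase of gene model. With main transcript lengths its share was 67.5% to 71.3%. Pfkm, another phosphofructokinase gene, averaged 1217 counts and is not part of these shares.

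Other genes of the pathway were read from lists. Of 19 genes for other steps and isoforms of glycolysis, 11 were tested with IFNγ and 10 without it, and 0 passed in either table (limma), with 1 at an unadjusted p under 0.05 in each. Eno1, the main enolase gene, held 68518 to 78119 counts, Pgam1, a phosphoglycerate mutase gene, 14292 to 15718, and Gpi1, glucose phosphate isomerase, 7594 to 10342. The low counts of Gapdh were thus not shared by these 3 genes. Gapdhs, the sperm isoform, held 8.05 to 13.1 counts.

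Of 10 transporter genes, 6 were tested and 0 passed in either table. Slc2a1, the main glucose transporter gene, held 5189 to 6639 counts and Slc16a3, a lactate exporter gene, 2971 to 3722. Of 25 regulators and branch enzymes 20 were tested, of the pentose phosphate genes 8 of 8 and of the tricarboxylic acid cycle genes 17 of 17, with 0 passing in either table. Their median log2 fold changes were between -0.06 and -0.00581, and at most 1 gene in each list had an unadjusted p under 0.05. Outside glycolysis, 21 of 23 genes of the HIF-1 and hypoxia list were tested, and 2 rose in each table, beside the 4.06% and 0.579% of all genes that passed with and without IFNγ. Vegfa, an angiogenic growth factor gene, rose in both (log2 fold change 0.33 and 0.27, limma adjusted p = 0.00131 and 0.0213). Ankrd37 passed with IFNγ (0.62, adjusted p = 0.00907) and Egln1, a prolyl hydroxylase gene that targets HIF for decay, without it (0.31, adjusted p = 0.00726). Ankrd37 did not pass by DESeq2, and its log2 fold change with IFNγ ran from 0.53 to 0.71 with single libraries left out. The untreated calls of Vegfa and Egln1 were lost by edgeR. With single libraries left out, their untreated log2 fold changes ran from 0.24 to 0.30 for Vegfa and from 0.28 to 0.34 for Egln1. Without robust moderation the untreated call of Vegfa was lost too.

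Among the 21 reference genes, 1 fell in DENR KO with IFNγ, a share near the 4.06% of all genes that passed there, and 0 passed without it, where 5 had an unadjusted p under 0.05. B2m, the light chain of MHC class I, held 18249 and 19860 counts in the control and 14713 and 16083 in DENR KO (log2 fold change -0.31, limma adjusted p = 0.000912). Of 6 markers of other cell types tested with IFNγ, 1 passed, beside 4.06% of all genes, and 4 had a log2 fold change below 0 (median -0.09). The gene that passed was Pdgfrb, a fibroblast and pericyte receptor gene. It was higher in DENR KO, at a mean of 502 counts against 371 in the control with IFNγ (log2 fold change 0.43, limma adjusted p = 0.00845). Log2 fold changes were -0.23 for Acta2, -0.24 for Des, -0.06 for Col1a1 and 0.00765 for Col3a1. Pdgfrb did not pass by DESeq2 (adjusted p = 0.113), and its log2 fold change was 0.41 without replicate 2 of DENR KO. Its part in the results above was not tested.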

How the data were processed

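RNA was extracted with Trizol, and 8 libraries were sequenced by the authors as paired reads. The submitters' processing notes name HISAT2 2.0.5, StringTie 1.3.3b, featureCounts 1.5.0-p3 and DESeq2 1.20.0, and the build mm9, but the deposited coordinates match GRCm38. The handling of strand and of multiply aligned reads is not given in the sources used here. The deposited values are a signal, counts divided by the authors by 1 size factor per sample, in 1 table per treatment; whole reads were recovered from them. The authors' group means, fold changes and p-values in these tables were not used.

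Genes averaging at least 10 were fitted on log2(value + 1) with limma 3.58.1 (R 4.3.3, trend and robust), within each table, and the interaction over all 8 samples, with Benjamini-Hochberg adjustment and a threshold of 0.05; a fold change on this scale understates that of low genes. Alternatives used edgeR 4.0.16, DESeq2 1.42.0, other pseudocounts, filters and centring, a replicate block and leaving out each library. Scripts were tested on simulated data. Shared sequence was counted over GENCODE M21 transcripts. Named genes were the 10 enzymes, list genes that passed with a mean of at least 100, Actb, the 5 genes most like Gapdh, the 3 most abundant close copies, and Denr. A list item is not reported here. Expressed levels of other list genes were named after their values were seen. The members and lists were chosen with earlier results of these data known.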

Additional observations from a re-analysis of the deposited data

How the results depend on the processing

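With 2 libraries a group, small effects could not be resolved, and where a library was left out the lone sample was assumed to vary like the other groups. The number of enzymes passing with IFNγ was 1, and 2 with edgeR, with DESeq2 and without robust moderation, Gapdh being the added gene. With a replicate block it was 5 (Hk2, Pfkl, Aldoa, Pgk1 and Pkm), and the number of all genes passing rose from 565 to 1455; without IFNγ the block moved that number from 81 to 257, and for the interaction from 63 to 150, with 0 enzymes in both. Over 10415 genes, replicate ratios of control and DENR KO correlated at 0.22 with IFNγ and -0.02 without it. Across the tables, control with IFNγ correlated at 0.23 with untreated control and DENR KO with IFNγ at 0.0837 with untreated control, and the other pairs of groups at 6.02e-05 and 0.0238. Not every pair was correlated, so the numbers are not known to pair the samples. edgeR called 32 genes and DESeq2 50 without IFNγ, no robust moderation 45, and DESeq2 345 with IFNγ. For the interaction, edgeR passed 1 enzyme (Gapdh).

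Calls of fits with 1 library left out are not read, as the lone library has no measured spread. Some log2 fold changes, none of them called in the main fit, changed sign when 1 library was left out. With IFNγ they ran from -0.0646 to 0.0942 (Hk1), -0.0856 to 0.11 (Pfkp) and -0.0256 to 0.00511 (Ldha). Without IFNγ they ran from -0.0324 to 0.0206 (Hk1), -0.0970 to 0.0921 (Hk2), -0.16 to 0.28 (second Aldoa model), -0.0870 to 0.0171 (Tpi1) and -0.0181 to 0.0728 (Ldha). With all libraries kept, 317 of 332 values of single genes kept their direction and side of the threshold, 5 lost a call, 10 gained one and 0 changed direction. With reads scaled over all 8 libraries, the level with IFNγ over untreated turned positive for Aldoa (0.0176), Tpi1 (0.00861), Pgk1 (0.0460) and Ldha (0.0490) in the control and for Pgk1 (0.0336) and Ldha (0.00534) in DENR KO, as the median of all genes moved to -0.00423 and -0.00779. The spread of the 9 enzymes had a median of 0.0892, 0.0900 on reads per library total and 0.0892 after centring. The use of main transcript lengths was chosen after seeing the data. The cause of these changes was not tested.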
